A study of Mus musculus with 6 samples.

Results

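Oxidative phosphorylation couples the transfer of electrons along the inner mitochondrial membrane to the making of ATP. Its genes were taken here by symbol, namely those that start with mt-Nd, mt-Co, mt-Cytb, mt-Atp, Nduf, Uqcr or Atp5, or with Cox4, Cox5, Cox6, Cox7 or Cox8, without pseudogenes. Of the 31053 genes counted, 102 symbols met this rule, and the 97 with at least 50 unique molecular identifiers (UMIs) in all cells were kept, 13 encoded by the mitochondrial genome and 84 by the nucleus. The 5 left out were Cox4i2 with 8 UMIs, Ndufa4l2 with 1, and Cox7b2, Cox8c and a second identifier of Atp5o with 0. Just inside the limit were Cox7a1 with 112 UMIs and Cox8b with 156, and the least counted mitochondrially encoded gene was mt-Nd6 with 441. Among the nuclear encoded members 36 belong to complex I, 8 to complex III, 16 to complex IV and 16 to complex V, and 8 are assembly factors of complex I. The mitochondrially encoded ones comprise 7 subunits of complex I, 1 of complex III, 3 of complex IV and 2 of complex V.

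The cells were CD45+ cells sorted from the right, tumor-bearing brain hemisphere of female SCID mice, a strain that lacks T and B lymphocytes, after intracranial implantation of U87, an established human glioma line. In 3 mice the implanted cells expressed IL-33 and the hemisphere was collected at 3 weeks, and in the 3 control mice they carried pcDNA and it was collected at 6 weeks, so IL-33 and time after implantation cannot be told apart. The labels give an age of 6-8 weeks and implantation at 8 weeks of age. Libraries were made with the 10x Chromium 3′ v2 chemistry, in which a barcode marks the cell and a UMI the captured molecule. All 6 libraries lie in 1 matrix of 40411 barcodes and 105560763 UMIs (median 2438 per barcode), whose barcode suffixes 1 to 6 are not tied to a mouse by the labels or by the matrix. The study lists cell numbers and median UMIs for each library, but groups were taken from the labels alone, and suffixes were not matched to libraries by such values. The libraries of the 2 groups are therefore described together, as a single sample, with no comparison of IL-33 with pcDNA and no p-value, and ranges over suffixes describe libraries whose group was not assigned here. By the methods of the study the libraries were sequenced in 3 batches, which were not matched to suffixes here. Differences between suffixes and those between groups, times of collection or sequencing batches cannot be told apart here.

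Electrons enter at complex I (NADH dehydrogenase) or complex II (succinate dehydrogenase), pass by ubiquinone to complex III and by cytochrome c to complex IV (cytochrome c oxidase), which reduces oxygen. The protons pumped on the way drive complex V, the ATP synthase. The mitochondrial genome encodes core subunits of complexes I, III, IV and V and is transcribed inside the organelle, whereas the remaining subunits are transcribed in the nucleus and imported as proteins, and complex II is wholly nuclear encoded. Microglia, the resident macrophages of the brain, and the myeloid cells that enter it from blood both use this pathway beside glycolysis.

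Mitochondrial genes lie end to end on a common transcript, and some share bases, so that a read from the shared stretch does not belong to 1 gene alone. The sequences of the 2 shortest mitochondrially encoded members are shown because of these overlaps and because their levels moved differently from those of the longer genes. The part of the overlaps in their counts or levels was not tested. In GRCm38 mt-Atp8 lies at chrM:7766-7969 on the plus strand, and its last 43 bases, at chrM:7927-7969, are also the start of mt-Atp6. For mt-Nd4l, at chrM:9877-10173, the last 7 bases are shared with mt-Nd4. Capitals mark the shared bases.
mt-Atp8: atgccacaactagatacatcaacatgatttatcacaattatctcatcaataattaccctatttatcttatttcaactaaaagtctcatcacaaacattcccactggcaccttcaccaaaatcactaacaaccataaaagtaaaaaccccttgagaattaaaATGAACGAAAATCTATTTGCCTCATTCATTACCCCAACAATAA
mt-Nd4l: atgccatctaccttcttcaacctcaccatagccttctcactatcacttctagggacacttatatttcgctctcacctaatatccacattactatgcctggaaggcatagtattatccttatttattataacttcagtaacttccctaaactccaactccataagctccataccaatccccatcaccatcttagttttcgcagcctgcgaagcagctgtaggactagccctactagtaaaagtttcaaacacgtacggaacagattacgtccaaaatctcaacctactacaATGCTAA
The other overlaps are 1 base between mt-Atp6 and mt-Co3 and 14 bases between mt-Nd5 and mt-Nd6, which lie on opposite strands.

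Some nuclear encoded members have promoter letters in common that the choice by symbol did not use. In RefSeq windows of GRCm38.p6 from 250 bases before to 50 after the start, 70 of the 84 nuclear members had an entry, with 75 windows. The letters of the NRF1 motif, GCGCNTGCG, read on both strands, were found in 32% of these windows and in 6.31% of the 32851 windows of all genes. NRF1 is a transcription factor known for nuclear genes of the respiratory chain. An ETS motif (CCGGAAG, as bound by GABP) was in 21.3% against 8.86%, and a YY1 motif (AAGATGGCG) in 10.7% against 1.4%. By contrast, CCAAT (41.3% against 37.4%) and TATAAA (9.33% against 13.6%) were in similar shares. The windows of all genes include genes not detected here and were not matched to the members by expression or base composition. The part of either in these differences was not tested. The 23 genes with the NRF1 letters included members of complexes I, III, IV and V and 2 assembly factors. The promoters of 3 genes, 1 each of complexes I, IV and V, are shown as the 150 bases before the start, all on the minus strand, at chr17:24724424-24724573 (Ndufb10), chr5:115348959-115349108 (Cox6a1) and chr15:102671048-102671197 (Atp5g2), with the matching letters in capitals.
Ndufb10: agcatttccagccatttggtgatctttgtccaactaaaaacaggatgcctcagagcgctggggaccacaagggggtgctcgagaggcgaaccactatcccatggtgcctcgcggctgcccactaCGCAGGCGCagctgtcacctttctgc
Cox6a1: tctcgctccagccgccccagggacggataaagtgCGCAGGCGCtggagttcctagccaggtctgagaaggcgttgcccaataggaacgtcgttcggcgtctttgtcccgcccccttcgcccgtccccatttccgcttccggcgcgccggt
Atp5g2: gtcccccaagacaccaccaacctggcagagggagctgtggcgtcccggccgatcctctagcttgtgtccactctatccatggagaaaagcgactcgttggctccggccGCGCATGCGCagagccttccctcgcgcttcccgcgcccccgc
The match begins 26 bases before the start of Ndufb10 and 116 before that of Cox6a1, and in Atp5g2 there are 2 overlapping matches. A match is a string of letters and not evidence of binding.

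Before the shares are given, a property of the barcodes has to be stated. The 40411 barcodes held 29579 different sequences, of which 3890 occurred with more than 1 suffix and 490 with all 6. In all, 14722 barcodes (36.4%) had such a shared sequence. They were mostly shallow, as counted in bins that start at 500, 1000, 2000, 3000 and 5000 UMIs. Shared were 8347 barcodes of the lowest bin (87.8%) and 4851 of the next (62.8%), against 9.99%, 4.74% and 4.52% in the higher bins. Barcodes of 1 sequence resembled each other across suffixes. Over the 7243 pairs with at least 1000 UMIs in both, the mitochondrially encoded share correlated with Pearson's r = 0.866 and the nuclear encoded share with 0.542, a description of pairs that share a sequence and are not independent. Where 1 barcode of a pair passed the gate for choroid plexus epithelium, both did so in 127 of 159 pairs. The cause was not tested. The shares by suffix, gate and UMI bin are given below with all barcodes and with the 25689 whose sequence is unshared. Some other results, such as those for barcodes that pass no gate and the levels of genes by suffix, rest on all barcodes only.

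Mitochondrially encoded members took 1.55% of all UMIs (95% interval 1.55 to 1.56%) and nuclear encoded ones 1.01% (1.00 to 1.01%). Intervals are exact binomial for shares and cover counting error only. From suffix 1 to 6 the mitochondrially encoded share was 1.37, 1.34, 1.34, 1.75, 1.73 and 1.79%, and the nuclear encoded share 0.904, 0.943, 0.893, 1.11, 1.05 and 1.12%. The spread between suffixes was thus far wider than the counting error. Without shared sequences the shares were 1.53 and 1.01%, and by suffix 1.27 to 1.79% and 0.891 to 1.13%.

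**Figure D1:**
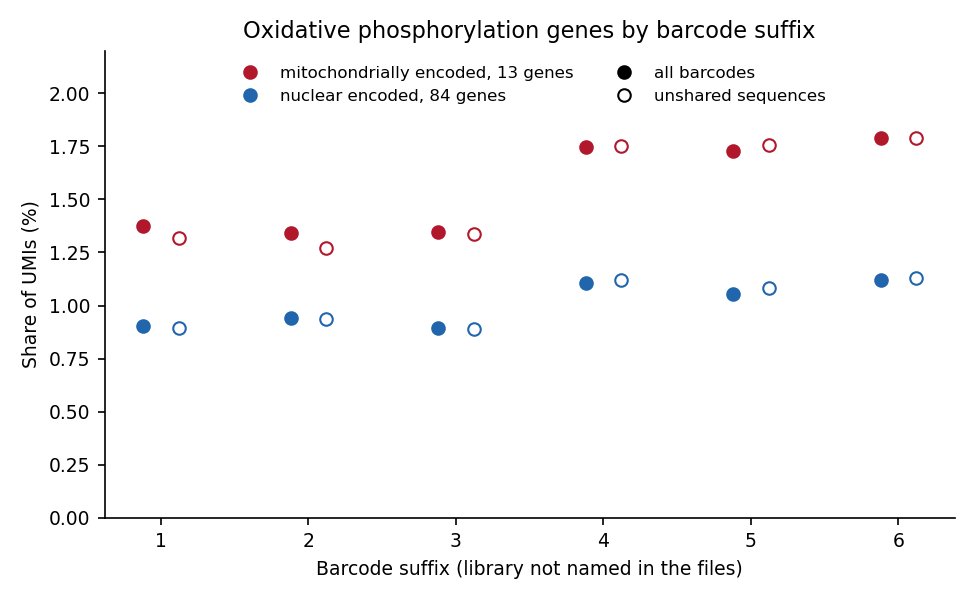
Share of all UMIs (%, y axis) on the 13 mitochondrially encoded (red) and 84 nuclear encoded (blue) genes in each barcode suffix (x axis), with all barcodes (filled) and with unshared sequences only (open). The mitochondrially encoded share runs from 1.34 to 1.79% and the nuclear encoded share from 0.893 to 1.12%, and open and filled points nearly coincide.

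Levels of single genes are counts per 1000000 UMIs of the cells considered (CPM). Since 3′ libraries tag 1 end of each molecule, CPM was not divided by transcript length, and levels of different genes are not ranked as expression. The core catalytic subunit of complex IV, mt-Co1, was at 1623 CPM, with 1329, 1321, 1388, 1803, 1946 and 2008 CPM in suffixes 1 to 6. The proton channel subunit of complex V, mt-Atp6, was at 3373 CPM, with 2926, 2863, 2686, 3877, 3811 and 4011 CPM. Both were highest in suffix 6, as was the summed share, and lowest in suffixes 2 and 3 respectively. The complex IV subunits mt-Co2 and mt-Co3 were at 1415 and 3267 CPM, mt-Cytb, the cytochrome b of complex III, at 1879.6 CPM, and the complex I subunits mt-Nd1, mt-Nd4 and mt-Nd2 at 2100.2, 1113 and 454.7 CPM. Lower counts were seen for mt-Nd5 (95.8 CPM), mt-Nd4l (49.7 CPM) and mt-Nd6, the only one of the 13 on the other strand (4.18 CPM). The short genes mt-Nd3 and mt-Atp8 differed from this. From suffix 1 to 6 mt-Nd3, a subunit of complex I, was at 55.5, 90.2, 232.2, 177.3, 202.4 and 111.7 CPM. A like pattern held for mt-Atp8, an accessory subunit of complex V, at 11.4, 12.4, 33.3, 31.4, 32.9 and 17.4 CPM.

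Of the nuclear encoded members, the 2 with the most UMIs in each complex were Ndufc2 and Ndufa13 (accessory subunits of complex I, 16909 and 16087 UMIs), Uqcrb and Uqcrh (complex III, 20788 and 18918), Cox4i1 and Cox8a (complex IV, 54671 and 31109), Atp5b and Atp5a1 (the β and α subunits of the catalytic head of complex V, 43799 and 27489) and Ndufaf7 and Ndufaf8 (assembly of complex I, 4040 and 3964). Cox4i1 was at 518 CPM, with 488, 468, 391, 568, 567 and 591 CPM in suffixes 1 to 6, and Atp5b at 415 CPM, with 394, 395, 346, 450.2, 429 and 453 CPM. The range was small for Ndufc2, from 149 to 166 CPM. It was widest in proportion for Cox6a2, the isoform of subunit 6a best known from heart and skeletal muscle, at 12.9, 13.4, 10.9, 62.0, 26.5 and 42.1 CPM.

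Cells were then gated by markers, with at least 5 UMIs on at least 2 genes of a list. The gate for microglia (Tmem119, P2ry12, Gpr34, Olfml3, Cx3cr1 and Selplg) alone was passed by 36790 barcodes, that for monocytes by 443, for NK cells by 328, for granulocytes by 135 and for choroid plexus epithelium by 364, while 2294 passed none. Since the gates were set by these lists, the lists are enriched in their gates by construction, and the values only describe how far. Monocyte markers took 0.493% of UMIs in monocyte-gated and 0.00326% in microglia-gated barcodes, NK markers 0.588% against 0.000856%, and granulocyte markers 5.47% against 0.000764%. Microglial RNA was present in each. The 6 microglial markers took 1.34% of UMIs in microglia-gated, 0.312% in monocyte-gated, 0.80% in NK-gated and 0.814% in granulocyte-gated barcodes, and of the latter 3 gates 264, 116 and 61 barcodes did not themselves pass the microglia gate (outside the microglial limit). Doublets were not called. Markers of astrocytes, erythroid cells and oligodendrocytes gave 0 gated barcodes, those of endothelium 1, those of T and B lymphocytes 16 and those of border-associated macrophages 22.

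In microglia-gated barcodes the mitochondrially encoded share was 1.49% (range over suffixes 1.32 to 1.70%) and the nuclear encoded share 0.940% (0.841 to 1.03%). Monocyte-gated barcodes had 2.26% (2.23 to 2.53% over the 4 suffixes with at least 20 such barcodes) and 1.98% (1.85 to 2.32%). Both shares were higher than in microglia-gated barcodes of the same suffix in each of these 4. In suffix 2 they were 2.53 and 2.32% against 1.32 and 0.920%, in suffix 4 2.23 and 2.02% against 1.69 and 1.03%, in suffix 5 2.26 and 1.85% against 1.67 and 0.992%, and in suffix 6 2.28 and 1.99% against 1.70 and 0.988%. Neither range overlapped that of microglia-gated barcodes, and the gap was the wider one for the nuclear encoded share.

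NK-gated barcodes had 1.92% mitochondrially encoded (1.53 to 1.97% over 3 suffixes) and 1.47% nuclear encoded UMIs (1.33 to 1.54%), both also above microglia-gated barcodes of the same 3 suffixes. For granulocyte-gated barcodes the shares were 1.90% and 1.12%, but the mitochondrially encoded share was 1.01% in suffix 2, below the 1.32% of microglia there, and 2.25 and 2.36% in suffixes 4 and 6, above it. Choroid plexus-gated barcodes, which are epithelial and not the target of a CD45 sort, were the only gate of the 5 in which nuclear encoded members exceeded mitochondrially encoded ones, with 3.90% (2.71 to 4.46%) against 2.83% (2.65 to 3.40%). The 2294 barcodes in no gate were at 2.42% and 1.21%, with a median of 728 UMIs. Unshared sequences gave 1.48 and 0.939% in microglia, 2.25 and 1.97% in monocytes, 1.91 and 1.47% in NK cells, 1.91 and 1.11% in granulocytes and 2.85 and 4.05% in choroid plexus epithelium.

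**Figure D2:**
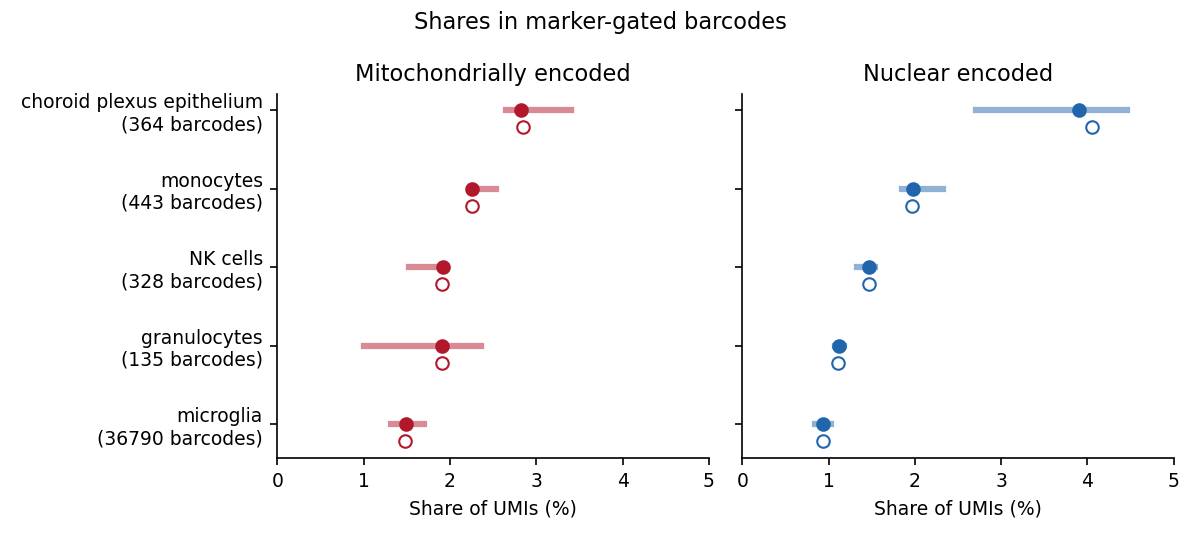
Share of UMIs (%, x axis) on mitochondrially encoded (left) and nuclear encoded genes (right) in marker-gated barcodes (y axis), where filled points are all barcodes, bars the range over suffixes with at least 20 barcodes and open points unshared sequences only. The nuclear encoded share rises from 0.940% in microglia-gated to 1.98% in monocyte-gated and 3.90% in choroid plexus-gated barcodes.

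Depth and other RNA classes also differed between the gates. The median barcode held 2544 UMIs in the microglia gate, 5083 in that for monocytes, 4814.5 in that for NK cells, 2264 in that for granulocytes and 1287.5 in that for choroid plexus epithelium. At 3000 to under 5000 UMIs and with unshared sequences, a comparison added after the data were seen, the mitochondrially and nuclear encoded shares were 1.51 and 0.957% in 10876 microglia-gated, 2.56 and 2.16% in 145 monocyte-gated, 1.76 and 1.54% in 51 NK-gated, 1.69 and 1.12% in 27 granulocyte-gated and 2.38 and 2.64% in 60 choroid plexus-gated barcodes. The order of the nuclear encoded share was therefore kept at like depth. Cytosolic ribosomal protein genes moved with it, at 4.99% of UMIs in microglia-gated, 13.9% in monocyte-gated, 10.5% in NK-gated and 6.12% in granulocyte-gated barcodes but 5.04% in choroid plexus-gated ones, and Malat1, a nuclear-retained RNA, was at 5.75, 2.41, 4.47, 4.86 and 2.12%. Shares with both left out of the denominator are given below, and their part in the result was not tested further. Outside the microglial limit the shares were 2.37 and 2.27% in monocyte-gated, 2.29 and 2.17% in NK-gated and 1.31 and 1.13% in granulocyte-gated barcodes. With microglial RNA at its least, then, the nuclear encoded share of NK-gated barcodes was near that of monocyte-gated ones. These NK-gated barcodes were shallower, however, with a median of 1618.5 UMIs against 4523 in the monocyte-gated ones. At 3000 to under 5000 UMIs, without regard to the microglial limit, the nuclear encoded shares were 1.54 and 2.16%. The part of depth in this was not tested.

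Gene by gene, members were counted as higher or lower where the CPM ratio to microglia-gated barcodes was at least 1.5 in either direction, among genes with at least 20 UMIs expected in the smaller gate from the mean CPM. In monocyte-gated barcodes 62 of the 80 nuclear encoded members that passed this floor were higher and 2 were lower, with a median ratio of 2.03. Over all 8148 genes that passed, 24.3% were higher and 22.9% lower, with a median of 1.00. The 4 that did not pass were Atp5s, Cox7a1, Cox8b and Ndufaf5, and since a gene can pass through its level in 1 gate alone, the counts describe the members that passed and not all 84. Of the mitochondrially encoded members 5 of 12 were higher and 0 lower (median 1.35). The gene ratios of this and the other gates pool all suffixes. Only 4 suffixes held at least 20 monocyte-gated barcodes, against all 6 for microglia-gated ones. Differences between suffixes therefore enter the size of the ratios, and their part was not tested. With unshared sequences of 3000 to under 5000 UMIs, 62 of 74 nuclear encoded members were higher and 0 lower (median 2.22), where 35.9% of all genes were higher (median 1.18).

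Ratios were higher for structural subunits than for assembly factors. Summed by complex, nuclear encoded subunits of complex I took 0.585% of UMIs in monocyte-gated against 0.325% in microglia-gated barcodes, a ratio of 1.80, and those of complexes III, IV and V stood at ratios of 2.18, 2.43 and 2.23. The 8 assembly factors of complex I took 0.0210% against 0.0188%, a ratio of 1.12. The highest ratios were those of Cox6b2 (4.35, from 44 UMIs), the testis isoform of subunit 6b, Atp5e (3.62), the ε subunit of complex V, Atp5l (3.27), its subunit g, Cox6c (3.17), a small subunit of complex IV, and Ndufa1 (2.99), a small subunit of complex I. Cox6b2 passed the floor only through its level in the monocyte gate, so its place in this ranking is not independent of the floor. The other 4 stood above microglia in each of the 4 suffixes. Atp5e was at 405.6 CPM against 112 CPM, Atp5l at 730.6 against 223 CPM and Cox6c at 476 against 149.9 CPM. The 5 lowest ratios were those of 4 assembly factors, Ndufaf7 (0.52), Ndufaf1 (0.60), Ndufaf2 (0.81) and Ndufaf6 (0.82), and of Ndufab1 (0.95), the mitochondrial acyl carrier protein, which also serves fatty acid and lipoic acid synthesis. Ndufaf7, a methyltransferase that acts on a complex I subunit, was at 20.6 against 39.3 CPM and was lower in all 4 suffixes. Ndufaf1 was at 8.70 against 14.4 CPM from 22 UMIs and was higher in 1 of the 4.

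The mitochondrially encoded members differed by complex as well. In monocyte-gated barcodes, pooled over suffixes, mt-Co1 was at 3448 CPM against 1526 CPM in microglia-gated ones, a ratio of 2.26 and the largest of the 12 that passed. mt-Atp6 (1.74), mt-Atp8 (1.71), mt-Co2 (1.66) and mt-Nd5 (1.52) were also over 1.5, and mt-Co3 was at 1.47. These 6 genes were higher in each of 4 suffixes. The remaining subunits of complexes I and III lay between 1.10 (mt-Nd3) and 1.22 (mt-Cytb), and of these mt-Nd2 and mt-Nd3 were higher in 2 of 4 suffixes. As a share of mitochondrially encoded UMIs, mt-Co1 made up 15.3% in monocyte-gated and 10.2% in microglia-gated barcodes, whereas mt-Nd1 made up 10.3% against 13.8% and mt-Cytb 9.91% against 12.2%. The make-up of the mitochondrially encoded pool, and not its size alone, thus differed between the gates, and in choroid plexus-gated barcodes mt-Co1 was at 8.90%.

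**Figure D3:**
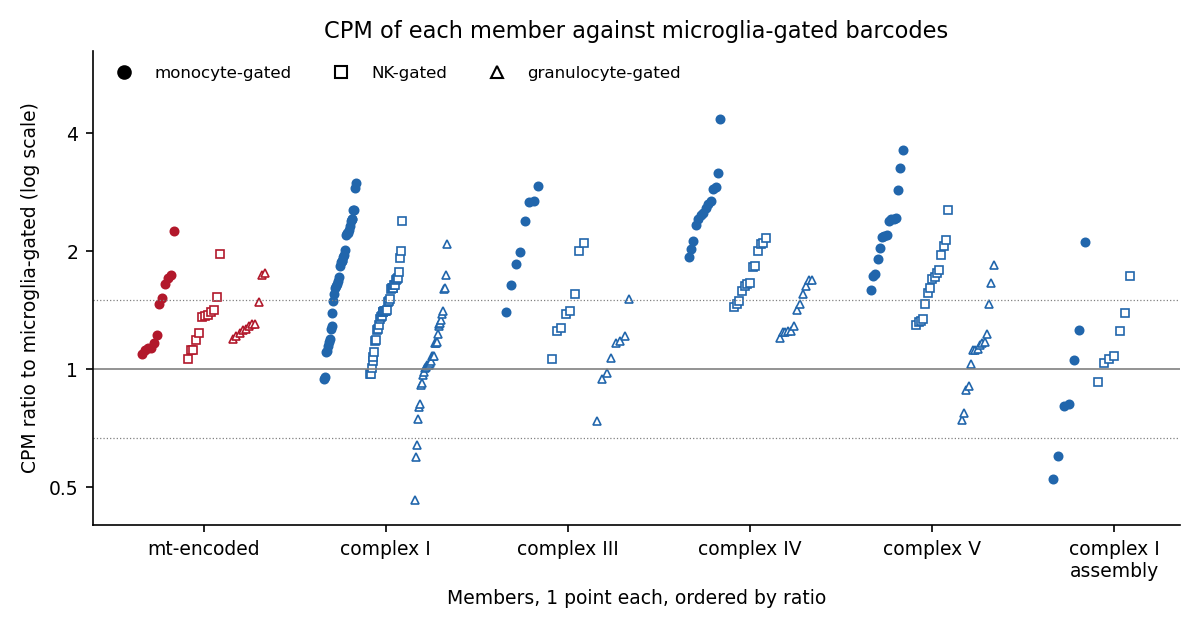
CPM ratio of each member to microglia-gated barcodes (y axis, log scale) in monocyte-gated (filled circles), NK-gated (open squares) and granulocyte-gated barcodes (open triangles), by mitochondrially encoded genes (red) and nuclear encoded complex (blue), with dotted lines at 1.5-fold. In monocyte-gated barcodes the sums of complexes III, IV and V stand at 2.18, 2.43 and 2.23 and that of the assembly factors at 1.12.

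In NK-gated barcodes 38 of 79 nuclear encoded members were at least 1.5-fold higher and 0 lower (median 1.49), against 18.1% higher and 6.79% lower of 7639 genes (median 1.07). Of the 12 mitochondrially encoded members tested against the same fold, mt-Atp8 (1.97) and mt-Co1 (1.53) were higher. The highest nuclear encoded ratios were those of Atp5e (2.55), Ndufa1 (2.38), Cox6c (2.17), Atp5g3 (2.14), a gene of the c ring of complex V, and Uqcrh (2.10), the hinge protein of complex III. Atp5e was at 285 CPM against 112 CPM, higher in each of the 3 suffixes compared. The lowest were Ndufaf7 (0.93), Ndufc2 (0.97), Ndufa9 (0.98), Ndufs1 (1.01) and Ndufaf6 (1.04), 3 structural and 2 assembly genes of complex I, none of them past 1.5-fold. Most UMIs of the NK gate, 1710577 of 1916843, lay in the 212 barcodes that also passed the microglia gate. The part of microglial RNA in the NK ratios was not tested.

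Granulocyte-gated barcodes differed least from microglia, but 393576 of their 458858 UMIs lay in the 74 barcodes that also passed the microglia gate. The part of microglial RNA in these ratios was not tested. Of 69 nuclear encoded members past the floor, which left out all 8 assembly factors, 11 were higher (15.9%) and 3 lower (4.35%), with a median of 1.17. Of all 3043 genes 12.4% were higher and 12.4% lower (median 0.936). The share of members that were higher was thus close to that of all genes, but a smaller share was lower. A ratio over 1 was seen in 52 of the 69, against 42.3% of all genes. The highest were Ndufa3 (2.09), Atp5e (1.85) and Ndufb9 (1.74), and among the lowest were the complex I subunits Ndufa10 (0.46, from 21 UMIs) and Ndufa11 (0.64), and Uqcrc1 and Atp5d (both 0.74), a core subunit of complex III and the δ subunit of complex V. Ndufa10 was at 45.8 CPM against 98.8 CPM and lower in each of 3 suffixes. Among the mitochondrially encoded genes mt-Nd5 (1.77) and mt-Nd4l (1.74) were higher, both in 2 of 3 suffixes.

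Ratios of the neighbours of the pathway differed from gene to gene in monocyte-gated barcodes. Over all 8148 genes past the floor 24.3% were higher and 22.9% lower. The lists are short, and their counts are not read as differing from these shares. Cycs, the cytochrome c that carries electrons from complex III to IV, was at 279 CPM against 89.1 CPM, a ratio of 3.13. In complex II 1 of 4 genes was higher, Sdhd, a membrane anchor (1.61), while Sdha, the flavoprotein, was at 1.05. Of 13 genes of the TCA cycle 4 were higher, Fh1 (fumarase, 3.05), Mdh2 (malate dehydrogenase, 2.27), Cs (citrate synthase, 2.15) and Idh3a (1.99), and Suclg2 was lower (0.67). Among 10 complex IV assembly genes past the floor 4 were higher, with Cox14 at 2.72, and Cox11 was lower (0.42). Among the 4 higher ones Cox16 (13.8 against 5.13 CPM) passed the floor only through its level in the monocyte gate. Cox11 (6.33 against 14.9 CPM) passed only through its level in the microglia gate, so these counts describe the genes that passed. The genes of mitochondrial transcription and biogenesis showed 0 of 6 higher and 1 lower. The lower one was Polrmt, the mitochondrial RNA polymerase (0.65), at 7.91 against 12.1 CPM and thus near the floor. Tfam, which packages mitochondrial DNA, was at 0.93. Of 6 carriers and porins only Slc25a3, the phosphate carrier, was past 1.5 (1.75). In NK-gated barcodes Cycs was at 1.76, and 1 of 13 TCA cycle genes and 0 of 4 of complex II were higher, against 18.1% of all genes. In granulocyte-gated ones 0 of 8 TCA cycle genes past the floor was higher, against 12.4% of all genes.

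Isoforms of complex IV subunits gave the sharpest differences between gates. Cox8b, the rodent isoform of subunit 8 known from heart and muscle, had 152 of its 156 UMIs in choroid plexus-gated barcodes, or 172.5 CPM (exact Poisson 95% interval 146 to 202 CPM, 104 to 437 over suffixes), and 3 UMIs in the 36790 microglia-gated ones. It had 0 UMIs in the monocyte, NK and granulocyte gates, which allows up to 1.46, 1.92 and 8.04 CPM. Cox6b2 was at 271 CPM in choroid plexus-gated barcodes (107 to 387 over suffixes) and at 4.0 CPM in microglia-gated ones. Cox7a1, the muscle isoform of subunit 7a, was at 39.7 CPM, against 0.627 CPM. The common isoforms were high there too, with Cox4i1 at 1665 CPM against 479.7 CPM and Cox8a at 1719 against 264.5 CPM, whereas Cox7a2l, which joins complexes III and IV, was at 212 against 206.8 CPM. In GRCm38 Cox8b lies at chr7:140898945-140900446, Cox6b2 at chr7:4751792-4753094 and Cox7a1 at chr7:30184144-30186078. All are protein-coding, and 3′ counting does not resolve exons.

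Cox6a2 (chr7:128205435-128206387) behaved differently from these. In choroid plexus-gated barcodes it was at 6.81 CPM from 6 UMIs, while it was at 26.9 CPM in microglia-gated (10.8 to 60.8 over suffixes), 78.7 in monocyte-gated (35.5 to 134.0), 40.2 in NK-gated and 47.9 in granulocyte-gated barcodes, with 0 in at least 1 suffix of each of the last 2. Few cells carried it. In the monocyte gate 52 of 443 barcodes (11.7%) had a UMI of Cox6a2, the highest had 17, and the 5 highest held 32.7% of its UMIs. In the microglia gate 1782 barcodes (4.84%) had one, and the 5 highest held 1.68%. Choroid plexus-gated barcodes, a type with little Cox6a2, had 1.65% with a UMI at a median depth of 1287.5 UMIs against 2544 for microglia. Cox6a1, the common isoform, was at 182 CPM in microglia-gated and 441 CPM in monocyte-gated barcodes. Among microglia-gated barcodes Cox6a2 was at 9.25 CPM in those of no marked state and 49.3 CPM in the glioma-associated state. In the interferon state it was at 93.4 CPM, and 105 of 475 barcodes (22.1%) had a UMI. The median depth was 1856 UMIs with no state, 3556 in the glioma-associated and 4287 in the interferon state. Cox6a2 was also lower in shallow than in deep microglia-gated barcodes (below). Its states were not compared at like depth or within suffixes.

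These states were marked within the microglia gate by the same rule of 5 UMIs on 2 genes, from lists for DNA replication (such as Mcm5), mitosis (Top2a), a glioma-associated state (Spp1, Ccl2, Ccl12, Ifitm3, Il1b), lipid genes (Lpl), MHC class II (Cd74) and the interferon response (Ifit3), and a barcode could carry more than 1. Barcodes of no state had 1.36% mitochondrially and 0.896% nuclear encoded UMIs. The mitochondrially encoded share was 1.66% in the glioma-associated state, 1.71% in DNA replication, 1.85% in the interferon state and 1.90% in mitosis, and 1.57 and 1.69% in the MHC class II and lipid states. The nuclear encoded share ran from 0.972% (MHC class II) to 1.18% (mitosis). Over all depths mitosis was thus highest in both. The interferon state was high in the mitochondrially encoded share and near the glioma-associated state in the nuclear encoded one (1.02 against 0.994%). The states differed in depth, however, with a median of 1856 UMIs with no state, 4516 in mitosis and 4722 in DNA replication. With unshared sequences of 3000 to under 5000 UMIs the shares were 1.35 and 0.923% with no state, 1.70 and 0.995% glioma-associated and 1.90 and 1.02% interferon. DNA replication was at 1.49 and 1.09% and mitosis at 1.62 and 1.11%. At this depth the mitochondrially encoded share of mitosis lay below those of the glioma-associated and interferon states. Only its nuclear encoded share stayed the highest of those given.

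The suffixes did not share these differences evenly. In suffix 4 the interferon state was at 2.09% mitochondrially encoded UMIs against 1.40% with no state, and in suffixes 5 and 6 at 1.90 and 1.98% against 1.53 and 1.46%. In suffixes 1 and 2 it was at 1.31 and 1.30% against 1.32 and 1.27%, which lies within the spread between suffixes. The glioma-associated state likewise stood at 1.34, 1.40 and 1.35% in suffixes 1 to 3 against 1.32, 1.27 and 1.30% with no state, and at 1.93, 1.83 and 1.90% in suffixes 4 to 6, against 1.40, 1.53 and 1.46%. Mitosis, with at least 20 barcodes in 5 suffixes, was above no state in all of these, at 1.54, 1.78, 2.24, 1.65 and 1.99% in suffixes 1, 2, 4, 5 and 6. Cox4i1 followed the states only in part, with 445 CPM with no state, 523 glioma-associated, 586 interferon and 483 in DNA replication. Atp5b was highest in mitosis (553 CPM) and DNA replication (532 CPM) and at 382 CPM with no state. These levels are pooled over suffixes and depths. Over suffixes alone Cox4i1 ran from 391 to 591 CPM and Atp5b from 346 to 453 CPM.

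By depth, all microglia-gated barcodes had, from the lowest bin (500 to under 1000 UMIs) to the highest (5000 or more), 1.60, 1.74, 1.22, 1.51 and 1.61% mitochondrially encoded UMIs. The nuclear encoded share was 0.868, 0.897, 0.873, 0.958 and 1.02%. The ratio of the lowest to the highest bin was 0.994 for the mitochondrially encoded and 0.854 for the nuclear encoded members. The mitochondrially encoded share thus had its minimum in the middle bin and was nearly equal at both ends.

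Unshared sequences gave another picture. The 762, 2649, 7275, 10876 and 2530 such barcodes of the 5 bins had 2.83, 1.74, 1.19, 1.51 and 1.61% mitochondrially encoded and 0.650, 0.80, 0.864, 0.957 and 1.02% nuclear encoded UMIs. The ratio of the lowest to the highest bin was then 1.76 for the mitochondrially encoded and 0.639 for the nuclear encoded members, so that between these bins the genomes went in opposite directions. From the middle bin upward both shares rose. In suffixes 1 to 6 the mitochondrially encoded share of the lowest bin was 3.83, 2.2, 4.16, 2.36, 2.14 and 4.04%, against 1.24, 1.22, 1.36, 1.86, 1.86 and 1.93% in the highest bin. The nuclear encoded share of the lowest bin was 0.563, 0.629, 0.553, 0.717, 0.765 and 0.581%, against 0.840, 0.927, 0.925, 1.14, 1.10 and 1.11%. All 6 suffixes agreed in both directions, and no value of the lowest bin overlapped with those of the highest bin. In the 6755 shared barcodes of the lowest bin the shares were 1.46 and 0.893%, and over shared sequences alone the ratios were 0.902 and 0.896.

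**Figure D4:**
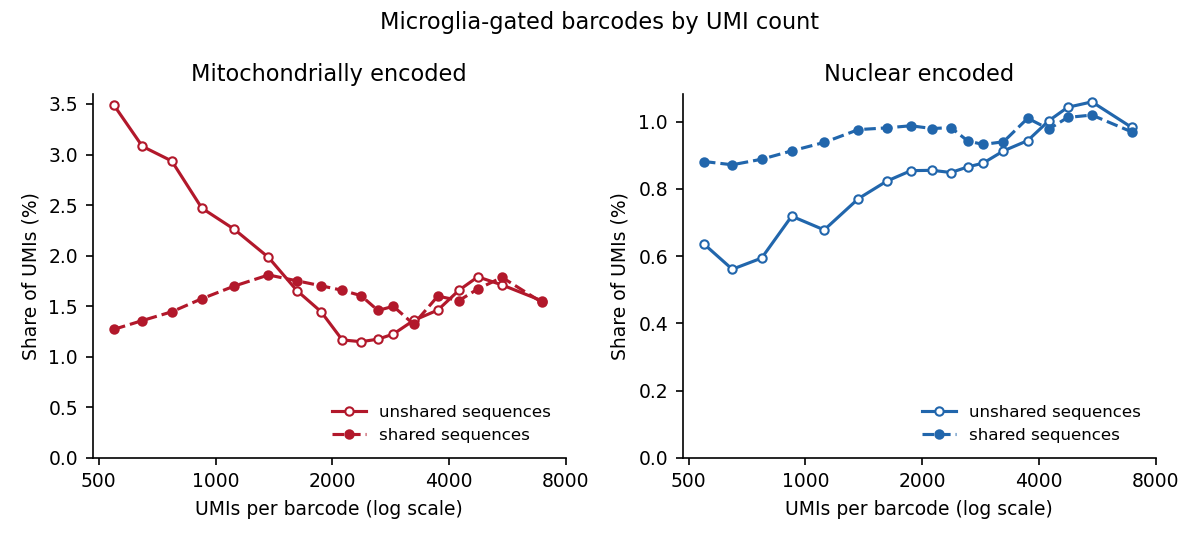
Share of UMIs (%, y axis) on mitochondrially encoded (left) and nuclear encoded genes (right) in microglia-gated barcodes by UMIs per barcode (x axis, log scale, points at the middle of each bin), for unshared (open, solid line) and shared barcode sequences (filled, dashed line). Below 1000 UMIs the mitochondrially encoded share of unshared barcodes climbs to 3.49% at 500 to 599 UMIs, while their nuclear encoded share lies between 0.561 and 0.719%.

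Among the bins of microglia-gated barcodes, those with at least 5% of UMIs on the mitochondrial genome were most frequent in the lowest unshared one. They were 134 of the 762 unshared barcodes of the lowest bin (17.6%) and 36 of the 6755 shared ones (0.533%), and 6.30, 0.550, 0.359 and 0.553% of the unshared barcodes of the higher bins. Over all gates there were 762 such barcodes (1.89% of 40411), with 7.21% mitochondrially and 1.59% nuclear encoded UMIs, and they were 18.4% of choroid plexus-gated but 1.31% of microglia-gated barcodes. With the limits of the methods (over 200 and at most 2500 genes and under 5% mitochondrial) and unshared sequences together, the ratio of the lowest to the highest bin was 1.13 for the mitochondrially encoded and 0.674 for the nuclear encoded members. Malat1 took 7.10% of UMIs in the lowest unshared bin and 5.39% in the highest. Malat1 was left out of the denominator only together with ribosomal protein genes, and its own part in the result was not tested.

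Gene by gene over all microglia-gated barcodes, 23 of 82 nuclear encoded members were at least 1.5-fold lower in the lowest than in the highest bin and 0 higher (median 0.846), where 11.2% of 9551 genes were lower and 11.8% higher (median 1.08). The lowest ratios were those of Cox6a2 (0.09, 5.26 against 56.3 CPM), Atp5k (0.31), a small membrane subunit of complex V, Atp5e (0.36) and Ndufa3 (0.37), a small subunit of complex I. The highest were Ndufv2 (1.37), Ndufs7 (1.35) and Ndufs3 (1.29), core subunits of complex I, Ndufaf1 (1.28) and Ndufb10 (1.25). Of the 13 mitochondrially encoded genes only short ones were past 1.5-fold, namely mt-Atp8 at 0.22, mt-Nd3 at 0.38 and mt-Nd4l at 0.45, each lower in 6 of 6 suffixes.

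With unshared sequences 72 nuclear encoded members passed the floor, of which 47 were lower and 0 higher (median 0.609), where 13% of 3830 genes were lower and 12.5% higher (median 1.05). Of 11 mitochondrially encoded members 9 were higher and 0 lower, led by mt-Nd1 (1.92, 4203 against 2191 CPM), mt-Nd4 (1.88), mt-Cytb (1.84), mt-Co3 (1.82) and mt-Atp6 (1.78), each in 6 of 6 suffixes. The lowest nuclear encoded ratios were those of Atp5g3 (0.30, from 12 UMIs), Ndufb2 (0.33), Ndufv3 (0.36), Uqcrh (0.36) and Atp5e (0.39). Atp5g3 passed the floor only through its level in the highest bin, and other members with low ratios may have done so too. The counts therefore describe the 72 members that passed and not all nuclear encoded ones. Ndufaf7 (1.39), Ndufs1 (1.36), Atp5a1 (1.03) and Ndufa10 (1.00) were among the highest. Cox4i1 fell in steps, with 521.6, 467, 382, 369 and 288 CPM from the highest to the lowest unshared bin, while in shared barcodes of the lowest bin it was at 564 CPM. Shared and unshared shallow barcodes thus differed in both genomes.

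The short mitochondrial genes separated them most. In the lowest bin mt-Nd3 was at 253.7 CPM in unshared and 34.4 CPM in shared barcodes, against 151 CPM in the highest unshared bin. For mt-Nd4l the values were 84 and 19.3 CPM, and for mt-Atp8 24.0 CPM (14 UMIs) and 4.49 CPM (23 UMIs). From the lowest to the highest shared bin mt-Nd3 was at 34.4, 49.4, 65.8, 139 and 128 CPM, whereas the longer mt-Co1 was at 1339.7, 1606, 1513, 1516 and 1676 CPM.

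Over the members, the ratio of the lowest to the highest bin went with transcript length. Across the 82 nuclear encoded genes Spearman's rho was 0.505 in all microglia-gated barcodes, and across the 13 mitochondrially encoded ones 0.577. With unshared sequences rho was 0.372 (72 genes) and 0.182 (11 genes). These are descriptions across genes, which share the same libraries and are not independent replicates. In all barcodes the 18 nuclear encoded members with transcripts under 600 bases had a median ratio of 0.608 and the other 64 one of 0.972, and with unshared sequences 17 and 55 members had 0.567 and 0.615. The limit of 600 bases was chosen after the values were seen. Each gene entered with a single annotated length, such as 4715 bases for Atp5g1 and 4371 for Ndufb2. The counts do not show which transcript of a gene was captured, so a member may be placed as longer or shorter than the RNA counted. Length also went with the monocyte ratios of the nuclear encoded members. Over 80 of these rho was -0.50, with a median ratio of 2.42 in the 18 short and 1.89 in the 62 longer members. The mitochondrially encoded members did not share this, with a rho of 0.133 over 12 genes. Their median ratio was 1.13 in the 3 short and 1.47 in the 9 longer ones. What length carries was not tested.

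**Figure D5:**
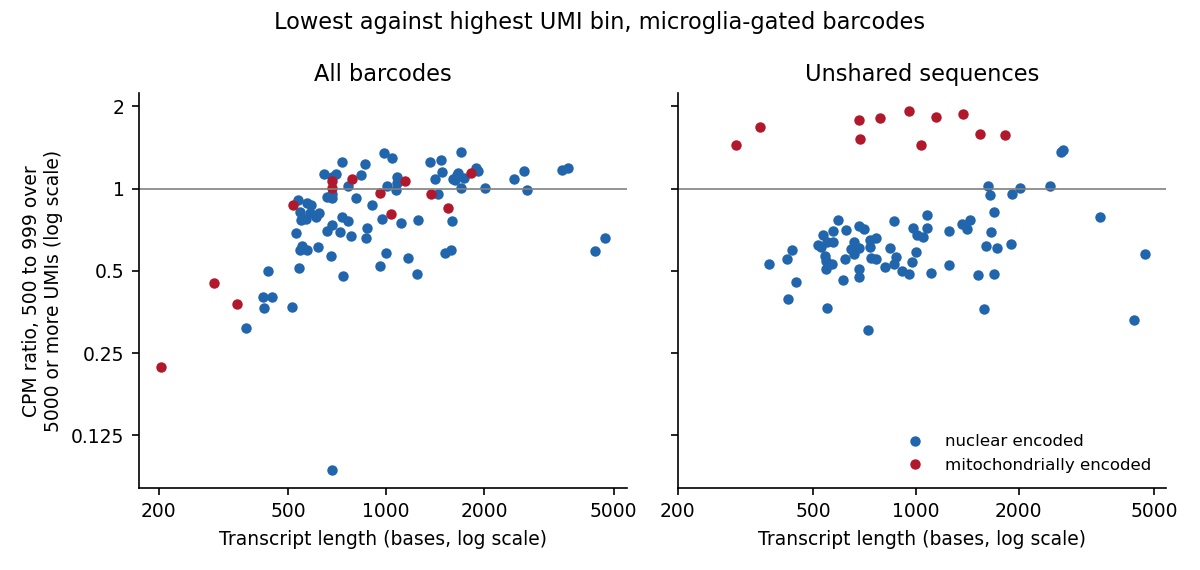
CPM ratio of the lowest to the highest UMI bin in microglia-gated barcodes (y axis, log scale) against transcript length in bases (x axis, log scale), with 1 point for each nuclear encoded (blue) and mitochondrially encoded (red) member, for all barcodes (left) and unshared sequences (right). With all barcodes the ratio tends to rise with length in both genomes (rho 0.505 and 0.577), though the lowest point is Cox6a2, of 680 bases. With unshared sequences the mitochondrially encoded genes lie above 1 and most nuclear encoded ones below it.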

How the data were processed

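Per the labels and the methods of the study, the authors aligned reads to mm10 with Cell Ranger 3.1, joined 6 libraries and deposited 1 matrix of raw UMI counts (whole numbers) per gene and barcode. Seurat 3.1.5 is also in the submitters' processing notes. The matrix holds the barcodes called as cells, before the filters of the study on genes and mitochondrial reads, and there were 0 unmatched sample columns.

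From these counts, shares of UMIs and CPM were computed with Python 3.11.15, numpy 2.4.6, scipy 1.17.1 and pandas 2.3.3, over all deposited barcodes, with exact (Clopper-Pearson and Poisson) 95% intervals. No test was made, since groups were taken from the labels alone and these tie no suffix to a mouse. The calculations were tested on simulated data. A gate is at least 5 UMIs on at least 2 markers of a list, without barcodes past more than 1 gate besides microglia. Alternatives changed the barcodes, gates, denominator, weighting, fold (2) and floor (50), and each suffix was left out in turn. Transcript lengths, spans and mitochondrial sequences are from GENCODE on GRCm38 and promoters from RefSeq. Genes named are the 13 mitochondrially encoded members, the 2 nuclear encoded ones with most UMIs by complex, the 5 highest and 5 lowest CPM ratios of each comparison, and members with a paralog in the set, except 1 that is not reported here, while examples beyond these (such as mt-Nd3 by bin) were chosen after values were seen. Members and lists were chosen with earlier results of these data known. Figures were drawn with matplotlib 3.10.9.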

Additional observations from a re-analysis of the deposited data

How the results depend on the processing

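Of 210 values of 13 results under alternatives, 190 moved by less than the spread between suffixes (counts by less than 1.5 times). Among them were the 78 with 1 suffix left out. These are a weak check, since leaving out 1 of several suffixes rarely moves a pooled share or ratio by that spread. The mitochondrially encoded shares without the minimum of UMIs for members were unchanged by construction, since all symbols under it were nuclear encoded. The count of 190 therefore overstates how far the results were tested. Without shared sequences the mitochondrially encoded ratio of the lowest to the highest UMI bin turned from 0.994 to 1.76 (1.13 with the limits of the methods added) and the nuclear encoded one moved from 0.854 to 0.639 (0.674 with these limits). Without ribosomal protein genes and Malat1 in the denominator, the nuclear encoded share was 1.13% in all, 1.05% in microglia-, 2.36% in monocyte-, 1.73% in NK- and 1.26% in granulocyte-gated barcodes, and the mitochondrially encoded share 2.70% in monocyte- and 2.26% in NK-gated ones. The monocyte-gated mitochondrially encoded share was 2.43% under limits on genes only, 2.49% as the mean of single cells and 2.60% at 3000 to under 5000 UMIs. The NK-gated nuclear encoded share was 1.68% under the limits of the methods or on genes only and 1.67% as the mean of single cells. Outside the microglial limit NK-gated barcodes were at 2.29 and 2.17%, and the monocyte-gated nuclear encoded share was 2.27%. At 2-fold, 42 in place of 64 members were apart in monocyte-gated barcodes. With at least 1000 UMIs the lowest bin is empty and gives no ratio. Alternatives by depth, ungated bins and combined or shared-only barcodes were chosen after seeing the data. No paired analysis was possible because suffixes were not matched to the labelled samples. Depth limits single members in the granulocyte gate (135 barcodes) and short mitochondrial genes in shallow bins.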

Other observations

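The 6 suffixes were not assigned to the groups here. The labels and the matrix do not name their mice, and the cell numbers and median UMIs that the study lists by library were not used to match them. In the summed shares of these genes, suffixes 1 to 3 lay below suffixes 4 to 6. The mitochondrially encoded share was 1.37, 1.34 and 1.34% in suffixes 1, 2 and 3 and 1.75, 1.73 and 1.79% in suffixes 4, 5 and 6, and the nuclear encoded share 0.904, 0.943 and 0.893% and 1.11, 1.05 and 1.12%. The short genes mt-Nd3 and mt-Atp8 did not divide the suffixes in this way, since suffix 3 was highest in both (232.2 and 33.3 CPM) and suffix 6 stood below suffixes 3, 4 and 5 (111.7 and 17.4 CPM). Other members did not either, such as mt-Nd4l, at 34.1, 51.8, 64.3, 60.6, 52.8 and 42.8 CPM in suffixes 1 to 6. Ndufs7 was at 122, 125, 101, 117, 114 and 121 CPM, and Ndufab1 at 120, 128, 104, 119, 112 and 117 CPM. Most sequences were shared between suffixes 1 and 2 (3428), 2 and 5 (3322) and 1 and 5 (3232), and fewest between 3 and 6 (509).

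A group of 57 barcodes passed more than 1 gate besides microglia, at 1.86% mitochondrially and 1.55% nuclear encoded UMIs with a median of 6015 UMIs. The 50 barcodes past the dendritic cell list, which overlap with the monocyte gate, were at 2.36 and 2.37%, with 18.3% of UMIs on cytosolic ribosomal proteins. The 893 barcodes with over 2500 genes were at 1.67 and 1.16%.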
